A study of Mus musculus with 9 samples.

Results

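The endosomal Toll-like receptors (TLRs) and the proteins that fold and carry them were followed through 3 populations of dendritic cell (DC) progenitors from mouse bone marrow. The members were taken by name, as the genes Tlr3, Tlr7, Tlr8, Tlr9, Tlr11, Tlr12, Tlr13, Unc93b1, Cnpy3 and Hsp90b1. Of these 10 genes, 9 had a probe set of their own among the 19938 genes compared, and Tlr11 was not analysed here because no probe set carried its symbol alone. Each population was on 3 of the 9 arrays. The Zbtb46-neg CDPs (labelled Zbtb46-) and the Zbtb46-pos CDPs (labelled Zbtb46+) are fractions of one progenitor type, and the third group is pre-CD8 DCs. CDPs are common DC progenitors, split here by a green fluorescent reporter of the classical DC factor Zbtb46, and pre-CD8 DCs are precursors of the CD8 DC lineage now called cDC1. Every animal, in all 3 groups, was heterozygous for the Zbtb46-GFP reporter, and no population came from wild-type mice. The marrow was that of pelvis, tibia and femur, and cells were sorted into medium with Flt3 ligand. Sort gates, ages and the number of mice behind an array are not given in the labels, so a p-value reflects the spread over these arrays alone, and that spread may be technical.

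Endosomal TLRs read nucleic acids or microbial proteins after uptake, from inside the vesicles of the cell. They are made in the endoplasmic reticulum (ER), where Hsp90b1 (gp96) and its partner Cnpy3 fold many, though not all, TLRs. Unc93b1 then escorts the endosomal ones to their compartment. In mouse, mature CD8 DCs are known for abundant Tlr3 and for lacking Tlr7, which plasmacytoid DCs use together with Tlr9.

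All values are log2 of the deposited signal of a probe set, and levels of different genes are not compared, because each probe set has its own brightness. Median array signals lay between 110.2 and 118.0. Precision is limited by having 3 arrays per population. The median over genes and arrays was 6.96 on the log2 scale, and a level near or below it was not shown to lie above background. A difference that starts or ends there can understate the change in transcript. Replicate 1 of both CDP groups stood apart: Xist, the transcript of the inactive X chromosome, was 5.30 in the Zbtb46-pos and 5.59 in the Zbtb46-neg replicate 1, against 11.85 to 12.29 on the other 7 arrays. The summed signal of 9 granulocyte markers was 29347 in Zbtb46-pos replicate 1, against 7675 and 7699 on the other Zbtb46-pos arrays and 27105 to 31380 on the Zbtb46-neg arrays. That sum takes in Mpo and Prtn3, which averaged 13.63 and 12.97 in Zbtb46-neg CDPs. Late granulocyte markers also set Zbtb46-neg replicate 1 apart, with S100a8 at 9.86 against 5.80 and 6.65 and Ngp at 10.48 against 5.70 and 6.84 on the other Zbtb46-neg arrays. On Zbtb46-pos replicate 1 S100a8 was at 11.58 and Ngp at 12.36. Pre-CD8 DC replicates 1 and 3 exceeded replicate 2 in Ngp (8.30 and 8.54 against 5.78) and S100a8 (7.81 and 7.52 against 6.11). In each population a lower signal cannot be told apart from fewer cells that carry the transcript. For the label of the last population, 7 of 9 cDC1 markers rose and 0 fell in pre-CD8 DCs against Zbtb46-neg CDPs, with Clec9a at 11.29 and 9.10 and Xcr1 at 8.26 and 5.84, where 6.43% of all genes rose. Of 6 cDC2 markers 2 also rose in that comparison, Cd209a by 3.12 and Irf4 by 1.05, while Sirpa (-3.14) and Clec10a (-1.90) fell. Cd8a itself was at 6.73 in pre-CD8 DCs, below the median of all genes, and at 6.44 in Zbtb46-neg CDPs.

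The windows before the transcription start are given for 4 of the 8 members whose start is in the RefSeq table (build GRCm38.p6): Tlr3 for its change, Tlr9 and Tlr13 as measured receptors with a motif match, and Hsp90b1 for its paired element. The windows of Tlr8, Tlr12 and Cnpy3 held no match to the motifs searched and are not printed. Each is the 250 bases before the start, 5′ to 3′ on the gene's strand. Capitals mark matches to a PU.1 type Ets motif (GAGGAAG), an AP-1 type motif (TGANTCA) or the ER stress element (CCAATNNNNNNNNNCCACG), searched on both strands of windows of 300 bases. The marked matches do not overlap. The fourth motif searched, an interferon-response motif (GAAA, any 2 bases, GAAA), matched Tlr11 alone among the members.
Tlr3, chr8:45410381-45410630, minus strand: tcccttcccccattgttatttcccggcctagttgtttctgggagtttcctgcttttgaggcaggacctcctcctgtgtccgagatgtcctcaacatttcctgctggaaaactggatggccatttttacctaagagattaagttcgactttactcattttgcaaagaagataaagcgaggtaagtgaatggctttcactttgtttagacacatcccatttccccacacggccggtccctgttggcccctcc
Tlr13, chrX:106143025-106143274, plus strand: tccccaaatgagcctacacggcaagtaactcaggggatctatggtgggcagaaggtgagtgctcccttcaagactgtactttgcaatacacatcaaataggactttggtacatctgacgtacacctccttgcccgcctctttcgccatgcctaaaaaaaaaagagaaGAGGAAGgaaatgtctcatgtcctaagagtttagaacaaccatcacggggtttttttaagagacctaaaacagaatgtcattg
Tlr9, chr9:106222348-106222597, plus strand: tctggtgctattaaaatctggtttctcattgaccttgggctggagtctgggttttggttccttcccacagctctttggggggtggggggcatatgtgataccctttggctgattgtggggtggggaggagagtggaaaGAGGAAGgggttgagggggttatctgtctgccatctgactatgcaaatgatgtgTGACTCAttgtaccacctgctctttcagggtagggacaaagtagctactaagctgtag
Hsp90b1, chr10:86705445-86705694, minus strand: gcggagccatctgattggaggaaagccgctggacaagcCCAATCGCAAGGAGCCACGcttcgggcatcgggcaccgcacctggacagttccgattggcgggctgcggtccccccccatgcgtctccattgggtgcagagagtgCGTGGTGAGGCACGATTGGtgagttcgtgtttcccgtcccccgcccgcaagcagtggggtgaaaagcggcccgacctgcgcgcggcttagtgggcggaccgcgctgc

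The Hsp90b1 window held 2 matches to the ER stress element, at positions -212 to -194 and, on the other strand, -107 to -89 from the start. That element matched in 0.119% of the 32851 windows of the table. The Ets motif matched 3 of the 8 members (Tlr9, Tlr11 and Tlr13) and 13.6% of all windows. Tlr9 had a further Ets match on the other strand at positions 12 to 18, past the printed stretch. The AP-1 type motif matched Tlr9 alone of the members and 7.81% of all windows, and the interferon-response motif 3.44%. Tlr3, the member with the largest change, had none of the 4 motifs in these letters. A match is a description of the letters and not evidence of binding.

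Tlr3, Tlr12 and Tlr13 rose toward pre-CD8 DCs, Tlr7 and Tlr8 fell, and Tlr9 was higher in pre-CD8 DCs than in Zbtb46-neg CDPs. In the fit of all 9 arrays by population the carrier and chaperone genes Unc93b1, Cnpy3 and Hsp90b1 passed in 0 of the 3 comparisons, and alternatives in which Unc93b1 and Hsp90b1 passed are given with their values. The moderated F test over the populations was passed by 5 of the 9 measured members (Tlr3, Tlr7, Tlr8, Tlr12 and Tlr13, not Tlr9), where 19.1% of all genes passed (limma, adjusted p under 0.05). In Zbtb46-pos against Zbtb46-neg CDPs 4 members were called, where 14.4% of all genes were, with 2 higher (3.85% of all genes) and 2 lower (10.6%). In pre-CD8 DCs against Zbtb46-pos CDPs 2 were called, where 6.62% of all genes were, with 2 higher (4.76%) and 0 lower (1.86%). In pre-CD8 DCs against Zbtb46-neg CDPs 6 were called, where 15.7% of all genes were, with 4 higher (6.43%) and 2 lower (9.23%). The arrays did not overlap for 7 of 9 members in the first of these comparisons (29.3% of all genes), 3 of 9 in the second (22.9%) and 6 of 9 in the third (33.7%). The median difference of the 9 members was -0.07, 0.21 and 0.06 in these comparisons, and that of all genes was 0.04, -0.03 and 0.01. Each population enters 2 of the 3 comparisons, so the counts are not independent.

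**Figure D1:**
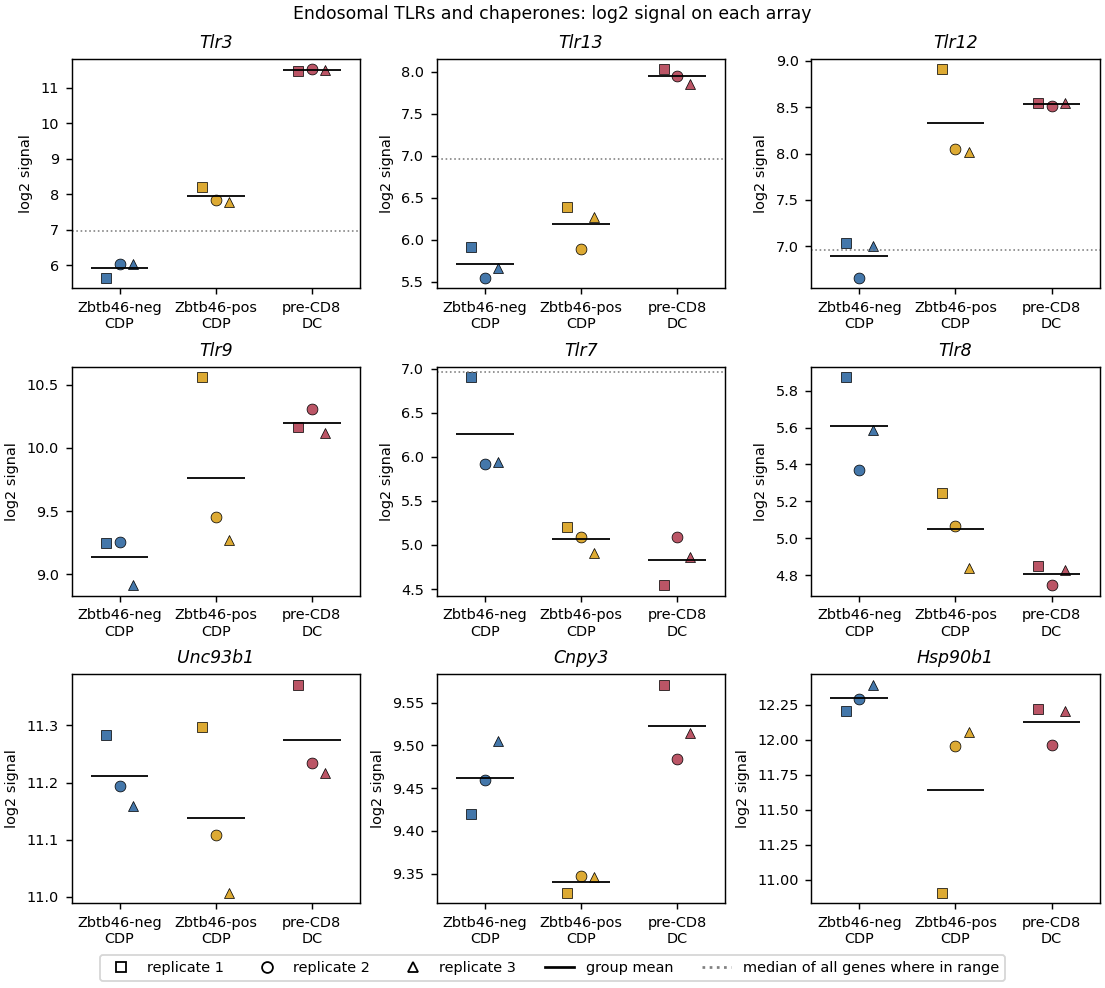
Log2 signal of the 9 measured members on each array, by population, with each gene on its own vertical scale. Points are arrays, with a shape for each replicate, horizontal bars are group means, and the dotted line is the median of all genes where it falls in range. Tlr3 climbs in separate levels through the populations, Tlr7 and Tlr8 lie below the median of all genes throughout, and Zbtb46-pos replicate 1 is the highest array for Tlr9 and Tlr12 and the lowest for Hsp90b1.

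**Figure D2:**
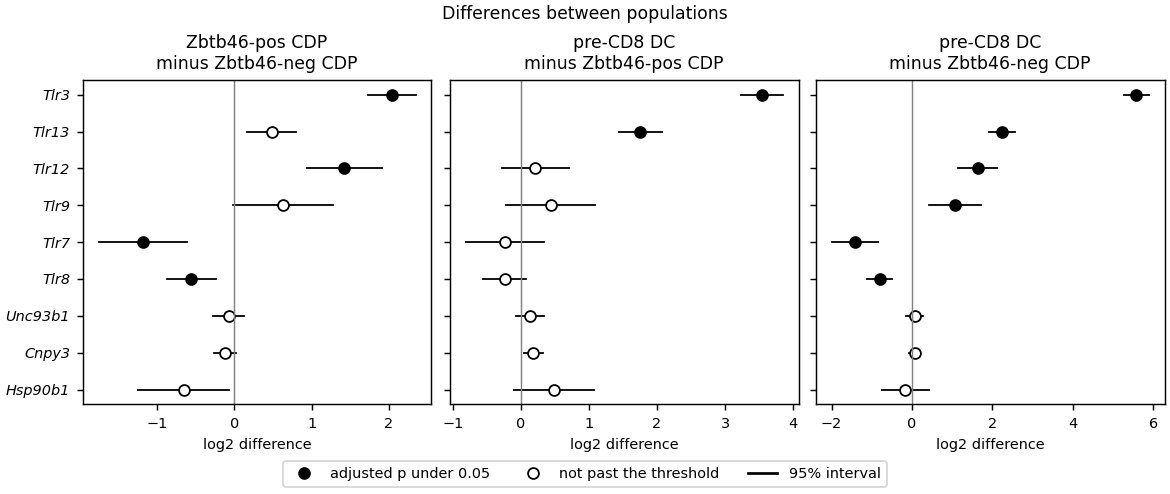
Log2 differences of the 9 measured members in the 3 comparisons (limma), with lines for 95% intervals and filled points for adjusted p under 0.05. Horizontal scales differ between panels. The intervals of Unc93b1 and Cnpy3 are narrow and lie close to 0, and those of Hsp90b1 and Tlr9 are wide.

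Tlr3, the receptor for double-stranded RNA, had the largest rise among the members. Its log2 signal was 5.65, 6.04 and 6.04 in Zbtb46-neg CDPs, 8.21, 7.85 and 7.79 in Zbtb46-pos CDPs, and 11.47, 11.51 and 11.49 in pre-CD8 DCs. No array of one population overlapped with another, and the pre-CD8 DC arrays lay within an SD of 0.02. Zbtb46-pos CDPs exceeded Zbtb46-neg CDPs by 2.04 (SE 0.137, adjusted p = 4.12e-05), a 4.11-fold difference from a level below the median of all genes. Pre-CD8 DCs exceeded Zbtb46-pos CDPs by 3.54, or 11.6-fold (adjusted p = 2.35e-06), which ranked 3 from the top of 19938 genes. Over both steps pre-CD8 DCs exceeded Zbtb46-neg CDPs by 5.58, or 47.7-fold (adjusted p = 4.61e-08). Without the arrays low in Xist the difference between CDP groups was 1.77 and that between pre-CD8 DCs and Zbtb46-pos CDPs was 3.67.

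Tlr13, which senses a stretch of bacterial ribosomal RNA in mouse, was higher in pre-CD8 DCs than in either CDP group. On the 3 arrays of each population its log2 signal was 5.91, 5.55 and 5.67 in Zbtb46-neg CDPs, 6.40, 5.90 and 6.28 in Zbtb46-pos CDPs, and 8.03, 7.95 and 7.85 in pre-CD8 DCs. The pre-CD8 DC arrays lay above all the others, while the CDP groups overlapped and lay below the median of all genes. Pre-CD8 DCs exceeded Zbtb46-pos CDPs by 1.76, or 3.38-fold (SE 0.139, adjusted p = 0.000133), and Zbtb46-neg CDPs by 2.24, or 4.71-fold (adjusted p = 7.82e-06). Between the CDP groups the difference was 0.48 with an interval of 0.16 to 0.80 (adjusted p = 0.0506). It passed in 9 of 22 alternatives, over which the adjusted p ran from 0.00890 to 0.143. Among these 9 was the fit that blocked on replicate number (adjusted p = 0.0186). Others were those without Zbtb46-neg replicate 1 (adjusted p = 0.0444) or Zbtb46-pos replicate 2 (adjusted p = 0.0148).

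Tlr12, a mouse receptor for the profilin of Toxoplasma, had already risen in Zbtb46-pos CDPs. Its log2 signal was 7.03, 6.66 and 7.01 in Zbtb46-neg CDPs, 8.91, 8.05 and 8.02 in Zbtb46-pos CDPs, and 8.54, 8.51 and 8.54 in pre-CD8 DCs. All Zbtb46-pos arrays lay above all Zbtb46-neg arrays, which averaged 6.90, near the median of all genes, and replicate 1 of the Zbtb46-pos CDPs also lay above the pre-CD8 DCs. That array is low in Xist and high in granulocyte markers, and the part of either in its levels of Tlr12, Tlr9 and Hsp90b1 was not tested. Zbtb46-pos CDPs exceeded Zbtb46-neg CDPs by 1.43, or 2.69-fold (SE 0.217, adjusted p = 0.00279), and pre-CD8 DCs exceeded Zbtb46-neg CDPs by 1.63, or 3.10-fold (adjusted p = 0.000799). Pre-CD8 DCs differed from Zbtb46-pos CDPs by 0.21, with an interval of -0.28 to 0.70 (adjusted p = 0.657). Without Zbtb46-pos replicate 1 that difference was 0.50 and passed (adjusted p = 0.0215, range 0.0142 to 0.932 over 22 alternatives). A test added after seeing the data took the later difference minus the earlier, and 7.63% of genes passed it with all arrays. For Tlr12 this contrast was -1.22 and did not pass (adjusted p = 0.0907). Tlr3 (1.501, adjusted p = 0.00783) and Tlr13 (1.275, adjusted p = 0.0160) passed, and the other members did not. With both arrays low in Xist left out, the Tlr12 contrast was -0.70 and passed (adjusted p = 0.0357), as did those of Tlr3 and Tlr13. The share of all genes passing in that setting is not given, so this pass has no background to be read against.

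Tlr9, the receptor for unmethylated CpG DNA, was above the median of all genes on every array. By array, its log2 signal was 9.25, 9.26 and 8.91 in Zbtb46-neg CDPs, 10.56, 9.46 and 9.27 in Zbtb46-pos CDPs, and 10.17, 10.31 and 10.12 in pre-CD8 DCs. Replicate 1 of the Zbtb46-pos CDPs was the highest of the 9 arrays, and the other Zbtb46-pos arrays lay close to the Zbtb46-neg CDPs. Pre-CD8 DCs exceeded Zbtb46-neg CDPs by 1.06, or 2.08-fold (SE 0.286, adjusted p = 0.0353), while the F test over the 3 populations did not pass (adjusted p = 0.0704). That call was lost when any 1 array of the Zbtb46-neg CDPs or of the pre-CD8 DCs was left out (adjusted p from 0.0738 to 0.128, with 1.05e-05 the lowest over 22 alternatives). Without Zbtb46-pos replicate 1, pre-CD8 DCs exceeded Zbtb46-pos CDPs by 0.83 (adjusted p = 0.00363), in place of 0.43 with all arrays (adjusted p = 0.467), and the range over 22 alternatives was 0.00363 to 0.779. Between the CDP groups the difference was 0.62 (adjusted p = 0.185), and 0.28 without the arrays low in Xist (adjusted p = 0.167). That difference passed in 2 of 22 alternatives, over which the adjusted p ran from 0.0386 to 0.387.

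Tlr7, the receptor for single-stranded RNA, was lower in the later populations. Its log2 signal was 6.91, 5.92 and 5.94 in Zbtb46-neg CDPs, 5.21, 5.10 and 4.91 in Zbtb46-pos CDPs, and 4.54, 5.09 and 4.86 in pre-CD8 DCs. The Zbtb46-neg arrays lay above all the others, replicate 1 farthest, and all 9 arrays lay below the median of all genes. That replicate is low in Xist and high in late granulocyte markers, as is Zbtb46-pos replicate 1, where Tlr7 was at 5.21. It was also high among the Zbtb46-neg arrays in the markers Ly6d (7.96 against 6.98 and 6.91) and Il7r (6.42 against 5.49 and 5.45). The part of any of these in the Tlr7 level of Zbtb46-neg replicate 1 was not tested. In Zbtb46-pos CDPs Tlr7 fell by 1.19 on the log2 scale against Zbtb46-neg CDPs (SE 0.255, adjusted p = 0.0144), a level 2.28 times higher in Zbtb46-neg CDPs. In pre-CD8 DCs it fell by 1.42 against Zbtb46-neg CDPs (adjusted p = 0.00451). Pre-CD8 DCs differed from Zbtb46-pos CDPs by -0.24, with an interval of -0.81 to 0.34 (adjusted p = 0.664). Between the CDP groups Tlr7 fell by 0.86 without Zbtb46-neg replicate 1, and it fell by 0.93 without the arrays low in Xist (adjusted p = 0.00731, range 0.00169 to 0.0494 over 21 alternatives).

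Tlr8, the neighbour of Tlr7 on the X chromosome and its closest relative, also fell between the CDP groups. By array, its log2 signal was 5.87, 5.37 and 5.58 in Zbtb46-neg CDPs, 5.24, 5.06 and 4.84 in Zbtb46-pos CDPs, and 4.85, 4.75 and 4.83 in pre-CD8 DCs. The Zbtb46-neg arrays lay above the rest by little, and every array was among dim levels. Zbtb46-pos CDPs differed from Zbtb46-neg CDPs by -0.56 (SE 0.139, adjusted p = 0.0268) and pre-CD8 DCs differed from Zbtb46-pos CDPs by -0.24 (adjusted p = 0.399). Pre-CD8 DCs differed from Zbtb46-neg CDPs by -0.80 (adjusted p = 0.00380). The call between the CDP groups was lost without Zbtb46-neg replicate 1 (adjusted p = 0.0797), Zbtb46-neg replicate 3 (0.0771), Zbtb46-pos replicate 2 (0.0718) or Zbtb46-pos replicate 3 (0.0798). Over 21 alternatives it ranged from 0.00153 to 0.0855.

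Markers of other cell types that use Tlr7 were measured beside these falls. The summed signal of 8 plasmacytoid DC markers was 3752 to 4045 in Zbtb46-pos CDPs and 4454 to 5639 in Zbtb46-neg CDPs, with replicate 1 the highest of the Zbtb46-neg arrays. That sum is weighted to the brightest marker, Bst2, at 11.04 in Zbtb46-pos and 11.45 in Zbtb46-neg CDPs. The mean log2 signal of the 8 overlapped between the groups. By array it was 7.98, 7.91 and 7.95 in Zbtb46-pos and 8.22, 7.88 and 7.84 in Zbtb46-neg CDPs. Of these markers Smim5 was higher (1.07) and Bst2 lower (-0.42) in Zbtb46-pos than in Zbtb46-neg CDPs. The defining marker Siglech was at 7.86 in Zbtb46-pos and 8.07 in Zbtb46-neg CDPs (adjusted p = 0.375), above the median of all genes. In pre-CD8 DCs against Zbtb46-neg CDPs 3 of the 8 plasmacytoid DC markers fell and 2 rose (9.23% and 6.43% of all genes). Siglech fell by 0.75 (adjusted p = 0.00844), Tcf4 by 0.69 (adjusted p = 0.0111) and Cox6a2 by 0.49. Ccr9 rose by 1.84 and Smim5 by 0.46. The Tlr7 arrays of pre-CD8 DCs overlapped with those of Zbtb46-pos CDPs. The summed signal of 5 B cell markers was 526 to 543 in Zbtb46-pos and 628 to 738 in Zbtb46-neg CDPs, where Cd79a, Ms4a1, Ebf1 and Pax5 averaged below the median of all genes in both and Cd79b was at 8.43 and 8.95. The summed signal of 7 monocyte and macrophage markers was 12624 to 16176 in Zbtb46-pos and 15045 to 16769 in Zbtb46-neg CDPs. Between the CDP groups 2 of the markers were higher and 4 lower, where 3.85% and 10.6% of all genes were. F13a1 fell by 1.87, Csf1r by 0.91, Cd14 by 0.57 and Adgre1 by 0.42 in Zbtb46-pos CDPs. Fn1 rose by 1.45 and Ccr2 by 0.69 there, and Ms4a6c did not pass. In pre-CD8 DCs against Zbtb46-neg CDPs 5 of the 7 were lower and 1 higher (9.23% and 6.43% of all genes). F13a1 differed by -4.76, Csf1r by -3.66 and Ccr2 by 1.34 on the log2 scale. The part of these cell types in the differences of Tlr7 and Tlr8 was not tested. In pre-CD8 DCs the summed signal was 3876 to 4380 for the plasmacytoid DC markers and 12617 to 12925 for the monocyte and macrophage markers, so the sum does not show the falls of F13a1 and Csf1r.

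Unc93b1, which carries the endosomal TLRs out of the ER, held a nearly constant level. Its log2 signal was 11.28, 11.19 and 11.16 in Zbtb46-neg CDPs, 11.30, 11.11 and 11.01 in Zbtb46-pos CDPs, and 11.37, 11.23 and 11.22 in pre-CD8 DCs. The arrays of the 3 populations overlapped. Pre-CD8 DCs differed from Zbtb46-neg CDPs by 0.06, with an interval of -0.14 to 0.27 (adjusted p = 0.805). With array weights it was 0.14 and passed (adjusted p = 0.0490, range 0.0490 to 0.981 over 22 alternatives). Between the same populations Tlr3 differed by 5.58.

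Cnpy3, the co-chaperone of Hsp90b1 for TLRs, was likewise within a narrow range. On the 3 arrays of each population its log2 signal was 9.42, 9.46 and 9.51 in Zbtb46-neg CDPs, 9.33, 9.35 and 9.35 in Zbtb46-pos CDPs, and 9.57, 9.48 and 9.51 in pre-CD8 DCs. The Zbtb46-pos arrays lay below those of both other populations without overlap, by 0.12 and 0.18 in the means, and neither difference passed (adjusted p = 0.229 and 0.133). Arrays did not overlap in 29.3% and 22.9% of all genes in those comparisons, so this separation is common in the table. Pre-CD8 DCs differed from Zbtb46-neg CDPs by 0.06, with an interval of -0.08 to 0.20. The sign of the difference between the CDP groups turned after quantile normalization, for Cnpy3 (0.013) as for Unc93b1 (0.0078).

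Hsp90b1, the ER form of heat shock protein 90, was low on 1 array. On the 3 arrays of each population its log2 signal was 12.21, 12.29 and 12.39 in Zbtb46-neg CDPs, 10.90, 11.95 and 12.05 in Zbtb46-pos CDPs, and 12.22, 11.96 and 12.20 in pre-CD8 DCs. The Zbtb46-pos arrays all lay below the Zbtb46-neg arrays, replicate 1 by far, and 2 of them lay close to the pre-CD8 DCs. Zbtb46-pos CDPs differed from Zbtb46-neg CDPs by -0.66, with an interval of -1.25 to -0.07 (adjusted p = 0.130). Without Zbtb46-pos replicate 1 and Zbtb46-neg replicate 1 the difference was -0.34 (adjusted p = 0.0527, range 0.0243 to 0.274 over 22 alternatives). Array weights and low Xist as a covariate were the alternatives in which it passed.

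Among 15 other ER chaperone and stress genes, 6 fell and 0 rose in Zbtb46-pos CDPs against Zbtb46-neg CDPs. Of all genes 10.6% were lower and 3.85% higher. The list median was -0.28, against 0.04 for all genes. Dnajb9, a partner of the chaperone BiP, fell by 0.87, the large ER chaperone gene Hyou1 fell by 0.85 and the disulfide isomerase gene Pdia4 fell by 0.77. In pre-CD8 DCs 4 of the 15 were higher and 0 lower than in Zbtb46-pos CDPs (4.76% and 1.86% of all genes). The 15 differences ran from 0.11 to 0.65. Pdia6, also a disulfide isomerase, rose by 0.65, Sdf2l1 by 0.57 and Hspa5, which encodes BiP, by 0.50. These comparisons share the Zbtb46-pos arrays. Pre-CD8 DCs set against Zbtb46-neg CDPs gave 2 higher and 1 lower (6.43% and 9.23% of all genes). Sdf2l1 (0.55) and Creld2 (0.36) were up and Pdia4 (-0.65) was down.

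Replicate 1 of the Zbtb46-pos CDPs was the lowest of the 9 arrays for 8 of the 15 genes. How often it was the lowest over all genes was not counted. For Xbp1 (10.26) and Atf4 (10.26) it was the highest of the 9 arrays. The list's median against the Zbtb46-neg mean was -0.54 on that array and -0.40 and -0.30 on the other Zbtb46-pos arrays. Without the 2 arrays low in Xist, 7 of the 15 were lower in Zbtb46-pos than in Zbtb46-neg CDPs, and 8 were higher in pre-CD8 DCs than in Zbtb46-pos CDPs. In that setting 2758 of all 19938 genes were lower in the first comparison (2105 with all arrays) and 2496 higher in the second (949 with all arrays). The ER stress element of the Hsp90b1 window was found in 5 of the 13 list genes with a listed start, namely Calr, Canx, Creld2, Hspa5 and Pdia6.

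**Figure D3:**
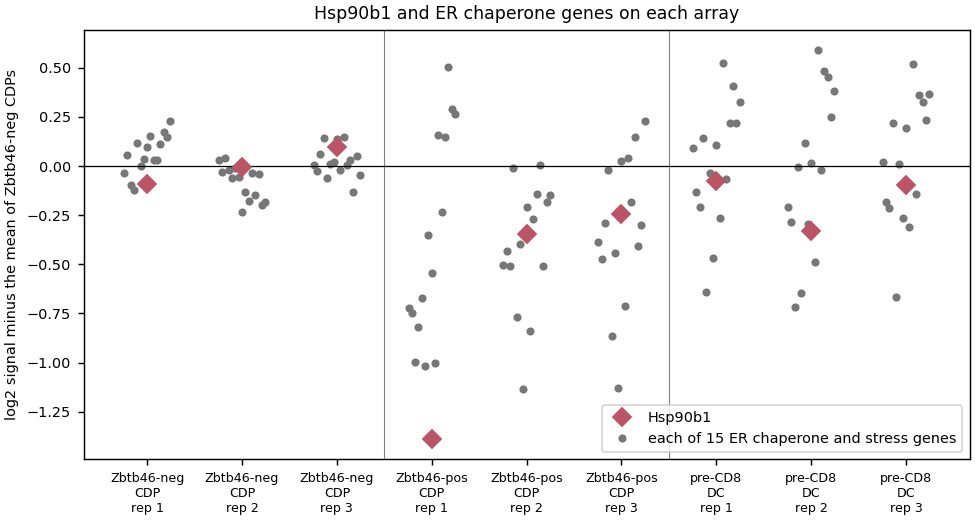
Log2 signal of Hsp90b1 (diamonds) and of each of 15 ER chaperone and stress genes (grey points) on each array, as the difference from that gene's mean in Zbtb46-neg CDPs. The grey points of the Zbtb46-pos CDPs lie mostly below 0, and Hsp90b1 is the lowest point of all on Zbtb46-pos replicate 1.

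Genes that signal from the endosomal TLRs changed in either direction. Zbtb46-pos against Zbtb46-neg CDPs gave 2 higher and 3 lower of 18 measured genes, pre-CD8 DCs against Zbtb46-pos CDPs 4 and 2, and pre-CD8 DCs against Zbtb46-neg CDPs 7 and 2. Of all genes, 3.85% were higher and 10.6% lower in the first of these, 4.76% and 1.86% in the second, and 6.43% and 9.23% in the third. The list medians were -0.06, 0.26 and 0.23, against 0.04, -0.03 and 0.01 for all genes. Irf7, the factor that turns on type I interferon after Tlr7 or Tlr9, rose by 1.24 in Zbtb46-pos CDPs and by a further 1.95 in pre-CD8 DCs. Irf5, a factor for inflammatory cytokines downstream of MyD88, rose by 1.01 in Zbtb46-pos CDPs. Irak3, an inhibitor of MyD88 signalling, fell by 0.89 and then by 1.11, while the adaptor Myd88 rose by 0.80 in pre-CD8 DCs against Zbtb46-pos CDPs.

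Ticam1 (TRIF), the adaptor that Tlr3 uses, is named for that role and was picked after its values were seen. It was at 7.65 in Zbtb46-neg CDPs, 7.76 in Zbtb46-pos CDPs and 8.15 in pre-CD8 DCs, and pre-CD8 DCs differed from Zbtb46-neg CDPs by 0.50 (adjusted p = 0.121). Without the arrays low in Xist the signalling list had 3 higher and 4 lower in Zbtb46-pos against Zbtb46-neg CDPs, and 11 higher and 2 lower in pre-CD8 DCs against Zbtb46-pos CDPs. Calls over all 19938 genes also rose in that setting, to 1737 higher and 2758 lower in the first of these comparisons (768 and 2105 with all arrays) and to 2496 higher and 1570 lower in the second (949 and 370 with all arrays).

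For trafficking and processing, Zbtb46-pos against Zbtb46-neg CDPs gave 2 higher and 1 lower of 15 measured genes (3.85% and 10.6% of all genes). Pre-CD8 DCs against Zbtb46-pos CDPs gave 2 and 0 (4.76% and 1.86% of all genes). Rab7b, a small GTPase of late endosomes and lysosomes, rose by 2.00 in Zbtb46-pos CDPs and by a further 1.21 in pre-CD8 DCs. Slc15a3, a lysosomal transporter of peptides and histidine, rose by 1.35 in Zbtb46-pos CDPs, and Ap3s1, a subunit of the AP-3 sorting complex, fell by 1.04. Ctss, the lysosomal protease cathepsin S, rose by 0.99 in pre-CD8 DCs against Zbtb46-pos CDPs. Pre-CD8 DCs set against Zbtb46-neg CDPs gave 3 higher and 3 lower (6.43% and 9.23% of all genes). Without the arrays low in Xist, pre-CD8 DCs against Zbtb46-pos CDPs gave 4 higher and 1 lower, while 2496 and 1570 of all 19938 genes were called, against 949 and 370 with all arrays.

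Among 6 measured genes that break down or handle nucleic acid, 1 was higher and 1 lower in Zbtb46-pos than in Zbtb46-neg CDPs (3.85% and 10.6% of all genes). These were the related lysosomal exonucleases Pld4, which rose by 0.80, and Pld3, which fell by 0.83. In pre-CD8 DCs Hmgb1, a DNA-binding protein, fell by 0.52 against Zbtb46-pos CDPs, and pre-CD8 DCs set against Zbtb46-neg CDPs gave 2 higher and 3 lower (6.43% and 9.23% of all genes). Without the arrays low in Xist, where more of all genes were called as given above, the counts were 1 higher and 2 lower in Zbtb46-pos against Zbtb46-neg CDPs, and 2 higher and 1 lower in pre-CD8 DCs against Zbtb46-pos CDPs. Of 4 measured cell-surface TLRs, which share the ER chaperones, 1 was higher in Zbtb46-pos than in Zbtb46-neg CDPs (Tlr4, 0.59) and 0 lower. Of all genes 3.85% were higher and 10.6% lower there. In pre-CD8 DCs 3 were higher and 0 lower than in Zbtb46-pos CDPs (4.76% and 1.86% of all genes). Tlr1 rose by 1.46, Tlr2 by 0.83 and Tlr4 by 0.70 in that comparison. Without the arrays low in Xist all 4 were higher in pre-CD8 DCs than in Zbtb46-pos CDPs. Between the CDP groups 1 was then higher and 1 lower.

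**Figure D4:**
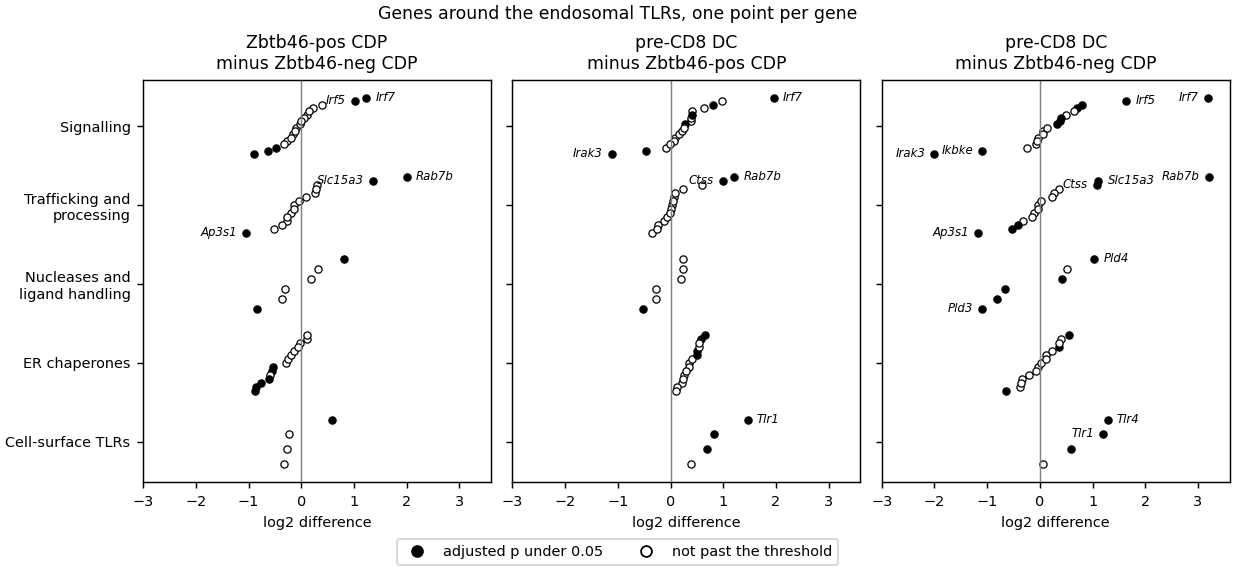
Log2 differences of the genes around the endosomal TLRs in the 3 comparisons, 1 point per gene and 1 row per list, filled where the adjusted p was under 0.05. Names mark called genes with large differences. Irf7 and Rab7b lie to the right in each panel, and the 15 ER chaperone genes lie mostly left of 0 in the first panel and right of 0 in the second.

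The genes nearest in profile to each member that passed the F test and spanned at least 1 on the log2 scale were found by the root mean square (RMS) difference over the 9 arrays, after each gene was centred on its own mean. The nearest to Tlr3 were the MHC class II gene H2-Eb1 (RMS 0.286), Phf11a (0.552) and the MHC class II transactivator gene Ciita (0.560). H2-Eb1 averaged 7.42 in Zbtb46-neg CDPs, 9.07 in Zbtb46-pos CDPs and 12.82 in pre-CD8 DCs. The nearest to Tlr13 were the sterol hydroxylase gene Cyp27a1 (0.155), Fcrla (0.174) and Kbtbd11 (0.193). For Tlr12 they were Iqsec1 (0.128), the AMP deaminase gene Ampd3 (0.157) and Pik3r5 (0.161), a regulatory subunit of a phosphoinositide kinase. For Tlr7 they were the angiopoietin gene Angpt1 (0.170), Ubash3a (0.178) and Rilpl2 (0.181). The likeness to Tlr12 and Tlr7 takes in single arrays, since the high Zbtb46-pos replicate 1 of Tlr12 and the high Zbtb46-neg replicate 1 of Tlr7 recur in the genes nearest to them.

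**Figure D5:**
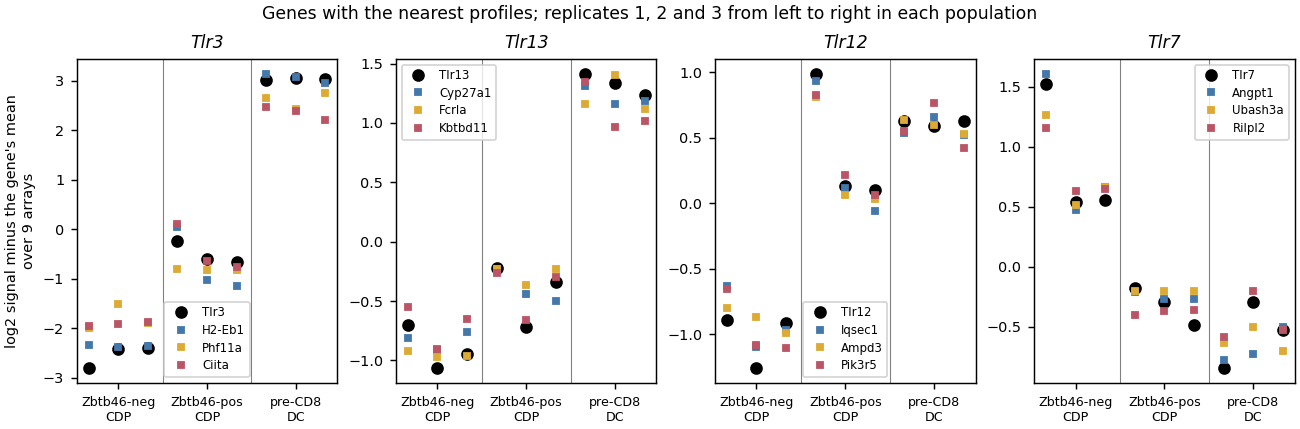
Log2 signal of 4 members (black) and of the 3 genes nearest to each (coloured squares) on the 9 arrays, each gene centred on its own mean. Within a population the replicates 1, 2 and 3 run from left to right. Tlr3 and H2-Eb1 lie close together in pre-CD8 DCs, and the high replicate 1 of Zbtb46-pos CDPs for Tlr12 is shared by its 3 neighbours.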

How the data were processed

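RNA of 3 sorted populations was measured on Affymetrix arrays, 3 per population, labelled with a pico-scale whole-transcript kit per the labels. The deposited values are the authors' RMA signal intensity per probe set, made with RMA in Affymetrix Expression Console per the submitters' processing notes; versions and settings are not given in the sources used here. They are linear (7.45 to 20456), so log2 was taken, with no other scaling. Of 28853 probe sets, 21789 had 1 gene symbol in the probe table, 1621 had several and 5443 were not listed there; the one with the highest mean per gene was kept, giving 19938 genes. No 2 arrays had identical values. Limma 3.58.1 (lmFit, eBayes; R 4.3.3) was fitted to all 9 arrays with group means, and p-values were Benjamini-Hochberg adjusted over all genes. Intervals are at 95%. The fit was tested on simulated data, with 66 or 67 changed genes per size of change in pre-CD8 DCs. Against Zbtb46-pos CDPs it recovered 40.3% of changes of 0.5 on the log2 scale, 86.6% of 1 and 100% of 2. Few genes were changed there and the noise was independent between arrays, so these shares need not hold for the arrays measured here. Residuals of same-numbered arrays correlated by 0.51, 0.42 and 0.36 between the CDP groups. The correlations were -0.03 to 0.03 between pre-CD8 DCs and Zbtb46-neg CDPs, and 0.07 to 0.17 between pre-CD8 DCs and Zbtb46-pos CDPs. Arrays of different numbers were not compared, and replicate 1 stood apart in both CDP groups. These values therefore cannot decide whether the numbers pair arrays, and the labels give no pairing. The main fit used no pairing, and the replicate block among the alternatives covered all 3 populations. Members and lists were chosen with earlier results of these data known. Named genes are the 10 members, up to 3 called genes of each list and comparison with the largest change, the 3 nearest profiles, markers and Xist; exceptions are stated. RefSeq windows were searched with Python 3.11.15.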

Additional observations from a re-analysis of the deposited data

How the results depend on the processing

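The counts of called members were 4, 2 and 6 for Zbtb46-pos minus Zbtb46-neg CDPs, pre-CD8 DCs minus Zbtb46-pos CDPs, and pre-CD8 DCs minus Zbtb46-neg CDPs. In the first they were 7 with array weights, 7 with low Xist as a covariate (chosen after seeing the data) and 2 at an adjusted p under 0.01, and in the second 4 without the arrays low in Xist. Leaving out 1 array at a time gave 3 to 4, 2 to 4 and 5 to 6, the upper value of the second without Zbtb46-pos replicate 1. With the replicate block the counts were 5, 2 and 6; Tlr13 between the CDP groups was the member whose call it changed. The differences that reversed were those of Cnpy3 (0.013) and Unc93b1 (0.0078) between the CDP groups after quantile normalization, neither past the threshold. The calls of Tlr3 in all 3 comparisons, of Tlr12 against Zbtb46-neg CDPs in both later populations, and of Tlr13 in pre-CD8 DCs held under all 22 alternatives. Tlr7 and Tlr8 are absent from the fit without the 30% dimmest genes.

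Over all genes, 2873, 1319 and 3123 genes were called. Array weights gave 6430, 3062 and 6955, and an adjusted p under 0.01 gave 1405, 543 and 1877. In the first and second comparisons, fits of 2 groups gave 1858 and 850, leaving out the arrays low in Xist gave 4495 and 4066, and low Xist as a covariate gave 5359 and 3130. Leaving out 1 array at a time gave 1793 to 5268, 662 to 2672 and 2250 to 4300; the cause was not tested. The first count was moved most by Zbtb46-pos replicate 1 (5268 without it) and by Zbtb46-neg replicates 1 (1911) and 3 (1793), and the second by Zbtb46-pos replicates 1 (2672) and 2 (860) and each pre-CD8 DC replicate (662, 790 and 662). Where an array is left out the fit pools the spread over groups. Median shifts under quantile and median scaling were at most 0.04. Dim levels limit Tlr7 and Tlr8, Tlr13 in both CDP groups, and Tlr3 and Tlr12 in Zbtb46-neg CDPs, which were not shown to lie above background.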
